A study of Mus musculus with 8 samples.

Results

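The collagen family was followed through m6A-RIP-seq of mouse primary vascular smooth muscle cells (VSMCs). The members were all protein-coding genes of the GENCODE M21 annotation whose symbol is Col, a number, the letter a and a number, which gave 44 of 21951 protein-coding genes. A gene was counted as carrying a peak where the summit of a peak, the base with the highest signal, lay in one of its exons. The cells came from the descending aorta of C57BL/6J mice 8 to 12 weeks old and were transduced with a lentivirus that expresses either an shRNA against Mettl14 (shMettl14) or a nontargeting shRNA against a plant microRNA sequence in a GFP vector (shCTR). They were collected 48 hours after fresh medium was given. Each shRNA had 2 replicates, A and B, with an antibody-enriched (IP) and an input library for each, and each IP library had its own list of peaks called against its input. Nothing in the labels says whether A and B were separate cultures, so the tests below measure only the spread between these libraries.

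Collagens are the structural proteins of the extracellular matrix, and VSMCs are their main source in the arterial wall. A collagen chain contains a triple helix in which glycine recurs at a fixed step (Gly-X-Y repeats), and most collagen genes code for that helix in many short exons. Fibrillar collagens form the cable-like fibres of the vessel wall, network and beaded-filament collagens form sheets and microfilaments around cells, and fibril-associated collagens decorate the fibres. Mettl14 is the partner of the methyltransferase Mettl3 in the complex that writes m6A, a mark found in the consensus DRACH, where R stands for a purine, D for any base but C and H for any base but G, and often near stop codons.

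The coding part of the last exon is shown for the 5 fibrillar collagens that carried a peak, because the peaks of this class lay around the stop codon that ends these stretches. Each is 147 nt long, stop codon included, is read from the GENCODE M21 transcripts (GRCm38) in the sense of the mRNA, and has DRACH in capitals. The stretches lie at chr11:94951473-94951619 (plus strand, exon 51 of 51) for Col1a1, chr6:4540516-4540662 (plus strand, exon 52 of 52) for Col1a2, chr15:97976040-97976186 (minus strand, exon 54 of 54) for Col2a1, chr2:28036870-28037016 (plus strand, exon 66 of 66) for Col5a1 and chr1:45376084-45376230 (minus strand, exon 54 of 54) for Col5a2.
Col1a1: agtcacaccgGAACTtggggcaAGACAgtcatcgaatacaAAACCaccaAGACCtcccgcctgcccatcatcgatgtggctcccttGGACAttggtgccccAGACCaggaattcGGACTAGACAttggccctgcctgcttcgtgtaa
Col1a2: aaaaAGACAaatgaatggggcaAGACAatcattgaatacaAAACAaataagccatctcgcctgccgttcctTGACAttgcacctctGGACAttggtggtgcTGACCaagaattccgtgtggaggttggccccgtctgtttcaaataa
Col2a1: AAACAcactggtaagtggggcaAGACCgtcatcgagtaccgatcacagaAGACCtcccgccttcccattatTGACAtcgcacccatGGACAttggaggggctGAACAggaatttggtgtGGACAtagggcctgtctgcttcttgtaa
Col5a1: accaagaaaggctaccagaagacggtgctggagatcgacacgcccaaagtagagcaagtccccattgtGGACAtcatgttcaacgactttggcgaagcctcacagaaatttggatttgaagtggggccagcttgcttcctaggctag
Col5a2: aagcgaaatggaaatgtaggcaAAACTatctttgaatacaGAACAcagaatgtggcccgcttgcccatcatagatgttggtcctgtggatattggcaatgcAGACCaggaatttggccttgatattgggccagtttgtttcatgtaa

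Col1a1 held 8 DRACH in this stretch, Col2a1 7, Col1a2 6, Col5a2 3 and Col5a1 1. Across 21472 protein-coding transcripts, the last 147 nt of coding sequence held a median of 3 DRACH, 95.2% held at least 1, 8.31% held 6 or more and 1.07% held 8 or more. Motifs recurred at the same places in several of the genes. Counted from the first base of the stretch, a DRACH began at position 23 in 4 of the 5 genes and at positions 41, 87 and 102 in 3 of 5 each. The only DRACH of Col5a1 began at position 69, and Col1a2 and Col2a1 had one at 72. The count allowed no gaps, so a shifted place was not counted as shared. Compared base by base with no gaps, Col1a1 was identical to Col2a1 at 74.8% of the 147 positions, to Col1a2 at 68.7% and to Col5a2 at 68.0%. These stretches are therefore not independent examples. Col5a1 was identical to Col1a1 at 27.9%. A shift of 1 codon lowers a count made without gaps, so this value does not set Col5a1 apart as unrelated. GGACT, a common form of the motif, was found in Col1a1 only among the 5, against 15.7% of all transcripts. The search was on the mRNA strand and overlapping matches were counted.

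A further set of windows is shown for coding peaks away from that layout, centred on the median position of the highest summits of the lists and kept within the exon and the coding sequence. They lie on the minus strand at chr16:57628488-57628588 (exon 4 of 4) for Col8a1, which had the highest peak of the family, chr10:76709559-76709657 (exon 35 of 35, ending at the stop codon) for Col6a1, chr1:90779004-90779104 (exon 35 of 41) for Col6a3 and chr10:77096058-77096158 (exon 2 of 41) for Col18a1.
Col8a1 window: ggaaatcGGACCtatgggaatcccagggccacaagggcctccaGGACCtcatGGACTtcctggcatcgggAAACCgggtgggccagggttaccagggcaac
Col6a1 window: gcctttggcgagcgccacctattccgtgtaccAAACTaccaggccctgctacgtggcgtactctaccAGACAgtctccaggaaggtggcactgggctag
Col6a3 window: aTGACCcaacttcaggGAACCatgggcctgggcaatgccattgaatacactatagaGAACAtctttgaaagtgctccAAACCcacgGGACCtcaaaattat
Col18a1 window: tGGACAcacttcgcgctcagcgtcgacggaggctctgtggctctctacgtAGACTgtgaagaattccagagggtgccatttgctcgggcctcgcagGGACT

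The Col8a1 window repeats ggn codons for glycine and held 4 DRACH, 1 of them GGACT. The windows of Col6a3, Col18a1 and Col6a1 held 5, 3 and 2 DRACH, with 1 GGACT in that of Col18a1. For 2 of the fibrillar genes with summits past the stop codon, 29 nt around the DRACH nearest to the median of the 3′ UTR summits are given, at chr6:4540671-4540699 (plus strand) for Col1a2 and chr2:28037118-28037146 (plus strand) for Col5a1.
Col1a2 site: aacctaaattaaAAACCaaAAACCcctga
Col5a1 site: cccctgcctgccTGACTcatctgtgcctc

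The central A of these sites lay 25 and 118 nt past the first base of the stop codon. Within 50 nt of the summit, a DRACH was found for 94.4% and 94.1% of the collagen summits of the shCTR lists and 93.1% and 90.0% of those of the shMettl14 lists. Over the summits of all genes the shares were 95.5%, 95.6%, 94.4% and 95.7%.

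Peaks of at least 1 list were found in 17 of the 44 collagen genes (38.6%), against 25.3% of all protein-coding genes. In all 4 lists a peak was found in 9 (20.5%), against 16% of all protein-coding genes. These 9 were Col1a1, Col1a2, Col2a1, Col5a1, Col5a2, Col6a1, Col6a3, Col8a1 and Col12a1. Col6a2, Col10a1, Col18a1 and Col23a1 had a peak in 3 lists, Col4a6, Col19a1 and Col28a1 in both A lists, and Col4a5 in the shMettl14 A list alone. No collagen gene had a peak in both shCTR lists and neither shMettl14 list (0.287% of all protein-coding genes did), and none had the opposite pattern (0.33%, 73 genes).

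Fibrillar collagens carried peaks in 5 of 11 genes, the most of any class in number though not in share, with 22 of the 90 collagen summits, and all 5 genes were in every list. Col1a1 and Col1a2 encode the chains of type I collagen, Col5a1 and Col5a2 those of type V, which sets fibril width, and Col2a1 that of type II, best known from cartilage. Col3a1, the type III chain that joins type I in the vessel wall, had no summit in any list, nor did Col5a3, Col11a1, Col11a2, Col24a1 or Col27a1. The beaded-filament class (type VI) had peaks in 3 of 6 genes with 20 summits, the missing ones being Col6a4, Col6a5 and Col6a6. The short-chain network class had peaks in 2 of 3 genes and 26 summits, 22 of them in Col8a1 and 4 in Col10a1, with none in Col8a2.

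The remaining classes carried few peaks. Among fibril-associated collagens, Col12a1 and Col19a1 of 9 genes had 8 summits between them, and Col9a1, Col9a2, Col9a3, Col14a1, Col16a1, Col20a1 and Col22a1 had none. Of the 6 basement-membrane genes, Col4a5 and Col4a6 had 3 summits, and Col4a1, Col4a2, Col4a3 and Col4a4 none. Col18a1, the precursor of endostatin, had 5 summits and its relative Col15a1 none. Of the 4 transmembrane collagens Col23a1 had 3 summits and Col13a1, Col17a1 and Col25a1 none, Col28a1 had 3, and Col26a1 and the anchoring-fibril gene Col7a1 had none. A missing peak says that the caller found no enrichment at this depth, not that the mRNA lacks m6A, and the lists hold no transcript level that would separate a weakly expressed from an unmethylated mRNA.

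**Figure D1:**
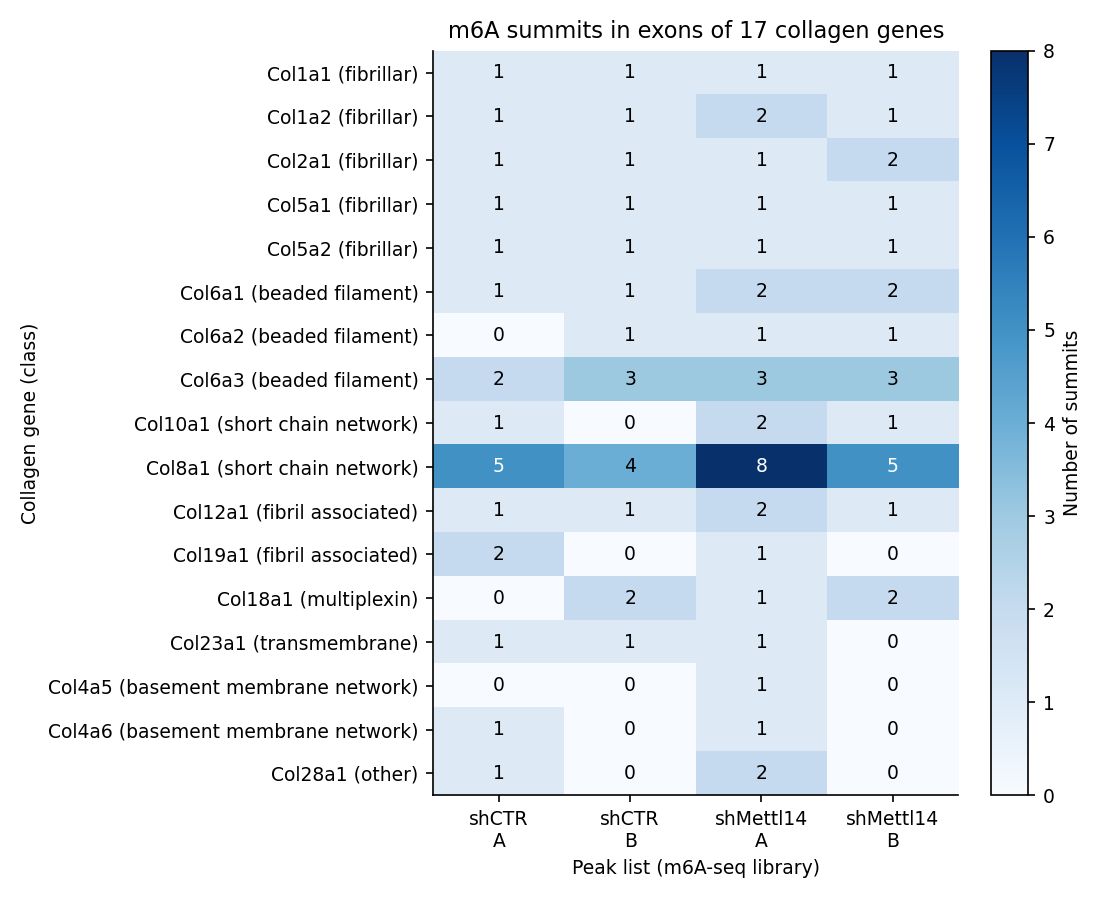
Number of m6A summits in exons of each of the 17 collagen genes with a peak, by peak list, with genes grouped by class. The 5 fibrillar genes have 1 or 2 summits in every list, while Col8a1 has 4 to 8.

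Per list, 14 and 12 collagen genes had a summit in the shCTR replicates A and B, and 17 and 12 in the shMettl14 replicates. The means were 13.0 ± 1.41 genes (SD, n = 2) with shCTR and 14.5 ± 3.54 (SD, n = 2) with shMettl14, and the 2 groups overlapped (exact permutation test, two-sided, p = 1.0). Collagen summits numbered 20 and 18 with shCTR and 31 and 21 with shMettl14, or 19.0 ± 1.41 against 26.0 ± 7.07 (SD, n = 2 each, exact permutation test, two-sided, p = 0.33, the smallest that 2 against 2 allows). The longest list, shMettl14 A, also held the most collagen summits. The lists held 11158 and 8655 summits with shCTR and 13675 and 9256 with shMettl14, of which collagens made up 0.179%, 0.208%, 0.227% and 0.227%.

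The methods give a nominal sequencing depth, but the lists hold no library totals, so the depth reached in each library is unknown and neither the Mettl14 knockdown nor the cell type can be read from transcript levels. Of the smooth muscle markers, 2 of 8 carried a peak (Lmod1 in all 4 lists with 19 summits, Myh11 in 3), while Acta2, Tagln, Cnn1, Smtn, Des and Myocd had none. Of the endothelial markers 3 of 5 carried a peak, with Cdh5 (18 summits, up to 109 fragments) and Pecam1 (4 summits) in all 4 lists, and Kdr in 3. Of the fibroblast markers 1 of 5 (Pdgfra, all 4 lists) and of the macrophage and leukocyte markers 1 of 5 (Csf1r, 1 list) did. Per the study's methods the adventitia was digested off and the endothelium scraped away before VSMCs grew out of the aortas. The part of endothelial or other cells in the collagen peaks was not tested. In bulk RNA, fewer cells of a type and less RNA per cell cannot be told apart.

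Collagen summits lay in long exons. Over the chosen transcripts of the 44 genes, the one with the longest coding sequence for each, 1917 of 2027 exons were under 300 nt and the median exon was 63 nt, against 136 nt over all protein-coding genes. Such short exons made up 59.6% of collagen mRNA length and 34.0% of the length of all protein-coding mRNAs. None of the 84 collagen summits that fell in a chosen transcript lay in them. The shortest exon with a summit was 331 nt, in Col8a1 and in 1 list. Over all genes, 345 of 34532 summits (0.999%) lay in exons under 300 nt, a share near that of the collagens, although such exons made up 27.4% of the mRNA length of the genes with a summit. The limit of 300 nt was chosen after the values were seen. At 200 nt the collagen count was 0 and at 500 nt it was 1.

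Long exons were also found in genes without a peak. All but 1 of the 44 genes had an exon of 300 nt or more, the exception being Col11a2 with a longest exon of 268 nt. The longest exon had a median of 1570 nt in the 17 genes with a summit and of 1091 nt in the 27 without. Col4a4, with an exon of 4972 nt, Col8a2 with 3951 nt, Col22a1 with 3726 nt and Col4a3 with 3260 nt had none. Peaks were called in genome coordinates and no spliced-transcript step is stated. The part of this in the pattern was not tested.

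**Figure D2:**
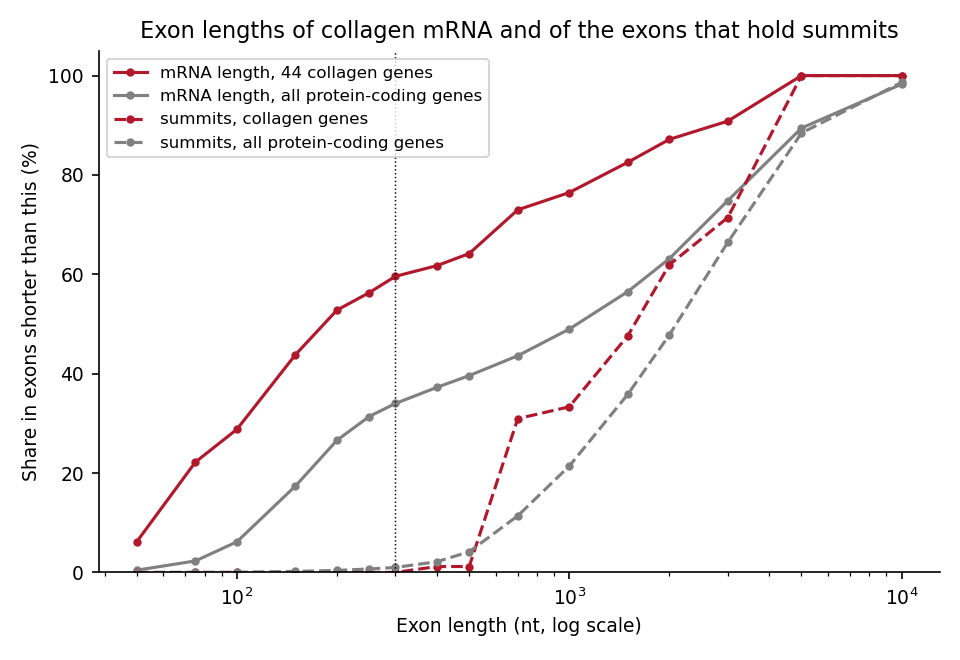
Cumulative share of mRNA length (solid) and of m6A summits (dashed) in exons shorter than the value on the logarithmic x axis, for collagen genes (red) and all protein-coding genes (grey). At 300 nt (dotted line) the curves stand at 59.6% of collagen length, 34.0% of all length, 0.999% of all summits and 0 collagen summits.

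Coding peaks mostly fell outside the triple helix. Of 58 coding summits over the 4 lists, 13 (22.4%) lay in runs of at least 5 Gly-X-Y repeats, namely 3 of 11 and 2 of 12 in the shCTR lists and 5 of 20 and 3 of 15 in the shMettl14 lists. Such runs made up 49.4% of the coding length of the 44 genes and 42.5% in the 12 genes with a coding summit, but 16.0% of the part of those 12 genes that lies in exons of 300 nt or more. With runs of at least 15 repeats the count was 6 of 58 (10.3%), against 34.0% of the coding length of the 12 genes and 9.77% of its part in such exons. The exceptions were Col8a1 and Col10a1, which code for the helix in long exons. Outside Col8a1 the count was 4 of 40 (10%), all 4 in Col10a1.

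Around the stop codon (within 200 nt of its first base along the mRNA) lay 50% and 41.2% of the collagen summits with shCTR and 37.9% and 40.0% with shMettl14. Over all genes the shares were 26.8%, 26.8%, 25.4% and 27.1%. The collagen share was higher in each of the 4 lists. Within the collagens it was 45.6% ± 6.24 with shCTR and 39.0% ± 1.46 with shMettl14 (SD, n = 2 each, exact permutation test, two-sided, p = 0.33, the smallest possible). Summits in the last exon made up 83.3%, 64.7%, 72.4% and 70.0% in collagens and 64.4%, 63.7%, 63.9% and 64.8% over all genes. No collagen summit lay in a 5′ UTR.

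The 5 fibrillar genes accounted for most of the summits at the stop codon, and they share a layout. In all 5 the last exon began 144 nt before the stop codon, as it also did in Col3a1, Col11a1, Col24a1 and Col27a1, which had no peak. In Col1a1 the summit lay 21 and 31 nt before the stop codon with shCTR, and 12 nt past it and 15 nt before it with shMettl14. In Col2a1 the highest summits lay between 2 and 31 nt past its first base in the 4 lists. In Col1a2 the highest summits ranged from 4 nt before to 115 nt past it, with the shMettl14 A summit farthest out. In Col5a1 they lay 96 and 106 nt past it with shCTR and 156 and 134 nt with shMettl14, and in Col5a2 21 and 77 nt with shCTR and 158 and 145 nt with shMettl14. Both shMettl14 summits lay 3′ of both shCTR summits in 6 of the 11 collagen regions found in all lists (Col1a1, Col5a1, Col5a2, regions 2 and 3 of Col6a3 and region 2 of Col8a1) and 5′ of them in 0. Over all genes this held for 55.5% of the 4197 regions whose highest summits lay in 1 chosen transcript, and the opposite for 3.55%, so the collagen count is near that of all genes and each position above carries a difference between the lists as a whole. Over the 11 collagen regions found in all lists, the highest summits of the 4 lists spread over a median of 60 nt, and over all 4929 such regions 56 nt.

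**Figure D3:**
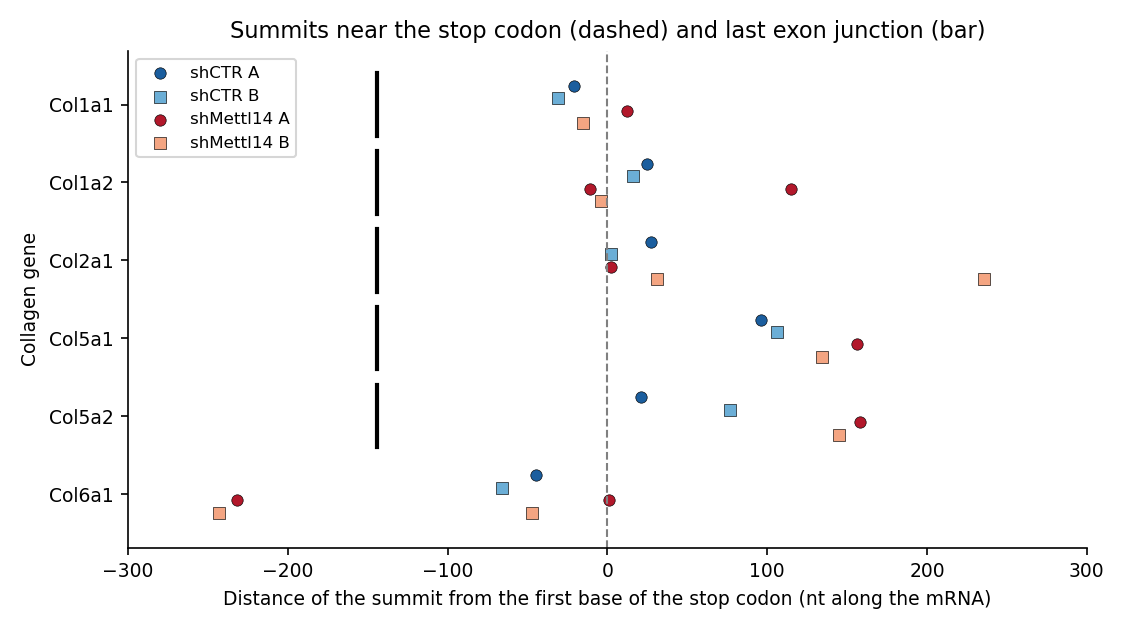
Position of each summit within 300 nt of the stop codon (dashed line at its first base) for the 5 fibrillar genes with a peak and Col6a1, in nt along the mRNA, by peak list, with a bar at the start of the last exon (144 nt before the stop codon in the fibrillar genes, outside the plot for Col6a1). All the fibrillar summits within 300 nt of the stop codon lie past that bar.

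To compare the shRNAs, overlapping intervals of the 4 lists were merged into 11361 regions, of which 25 held a collagen summit. In all 4 lists were found 11 of the 25 (44%), against 43.4% of all regions. None of the 25 was found in both shCTR lists and neither shMettl14 list (1.71% of all regions), and none in both shMettl14 lists and neither shCTR list (1.79%). For each list the number of fragments over the highest summit (the pileup) and the background set against it, which comes from the input, were recovered from the fold enrichment and the p-value of MACS2. Regions of a gene are numbered from its 5′ end.

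In Col8a1, the type VIII collagen that VSMCs are known to make after injury, 3 of its regions carried a peak and 2 were in all lists. The strongest, in the helix (region 2), had 122 and 119 fragments with shCTR and 90 and 92 with shMettl14, the highest pileup in the family in every list. Its fold enrichment over background was 13.5 and 17.1 with shCTR and 12.4 and 20.1 with shMettl14, so the raw pileups did not overlap between the shRNAs and the fold enrichments did. Region 3, toward the stop codon and into the 3′ UTR, had 73 and 81 fragments with shCTR and 58 and 40 with shMettl14. Region 1, in the exon of 331 nt, was found in the shMettl14 A list alone, with 22 fragments.

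Of the type V chains, Col5a1 had 89 and 87 fragments with shCTR and 70 and 62 with shMettl14, and fold enrichments of 8.81 and 11.8 against 9.71 and 11.1. Col5a2 had 41 and 36 fragments with shCTR and 26 and 28 with shMettl14. Its background was 5.66 and 2.91 fragments with shCTR and 2.10 and 1.86 with shMettl14, so its fold enrichment, 6.31 and 9.47 against 8.70 and 10.1, overlapped between the shRNAs.

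The chains of type I collagen differed in their background. Col1a1 had 66 and 48 fragments with shCTR and 37 and 31 with shMettl14, over the highest background of the 11 regions, 12.3 and 10.8 against 9.47 and 6.30 fragments. Its fold enrichment was therefore low, at 5.04 and 4.16 against 3.63 and 4.38, and overlapped between the shRNAs. Col1a2 had 71 and 52 fragments with shCTR and 31 and 37 with shMettl14, over a background of 7.12 and 6.28 against 2.89 and 4.44. In both genes pileup and background were lower in both shMettl14 lists.

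Col2a1 had 32 and 49 fragments with shCTR and 17 and 30 with shMettl14, which did not overlap as raw values and did once each list was centred on its median. In Col6a1, a chain of the beaded-filament type VI collagen, the pileup was 44 and 55 with shCTR and 35 and 20 with shMettl14. A second, lower summit of the same interval was listed with shMettl14 only, at positions -232 and -243 from the first base of the stop codon, with 19 and 11 fragments. Col6a3 had regions in exon 7 of 41 (17 and 16 fragments against 15 and 15) and exon 35 of 41 (20 and 22 against 17 and 15). Col12a1, whose peak lay in exon 10 of 66, far from the stop codon, had 14 and 12 fragments with shCTR and 13 and 12 with shMettl14.

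Weaker peaks were less steady between lists. Col18a1 had summits in exon 2 of 41 with 12 fragments in shCTR B and 7 and 13 in the shMettl14 lists, and in exon 1 with 10 in shCTR B and 8 in shMettl14 B, and none in shCTR A. Col10a1 had 13 fragments in shCTR A, 10 in shMettl14 A and 5 in shMettl14 B. Col6a2 had 9 in shCTR B and 15 in each shMettl14 list. Col23a1 had 5 and 6 with shCTR and 8 in shMettl14 A, in its 3′ UTR. Col28a1 had at most 9 fragments, Col4a6 at most 8 and Col19a1 at most 4, each in the A lists alone, and Col4a5 had 14 in shMettl14 A. The Col19a1 summits and the first Col6a3 region lie in exons outside the chosen transcripts. Summits inside a gene but outside its exons, which the rule does not count, numbered 9 over the 4 lists in Col4a5, 2 each in Col4a1 and Col18a1, and 1 each in Col4a6, Col14a1 and Col16a1.

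**Figure D4:**
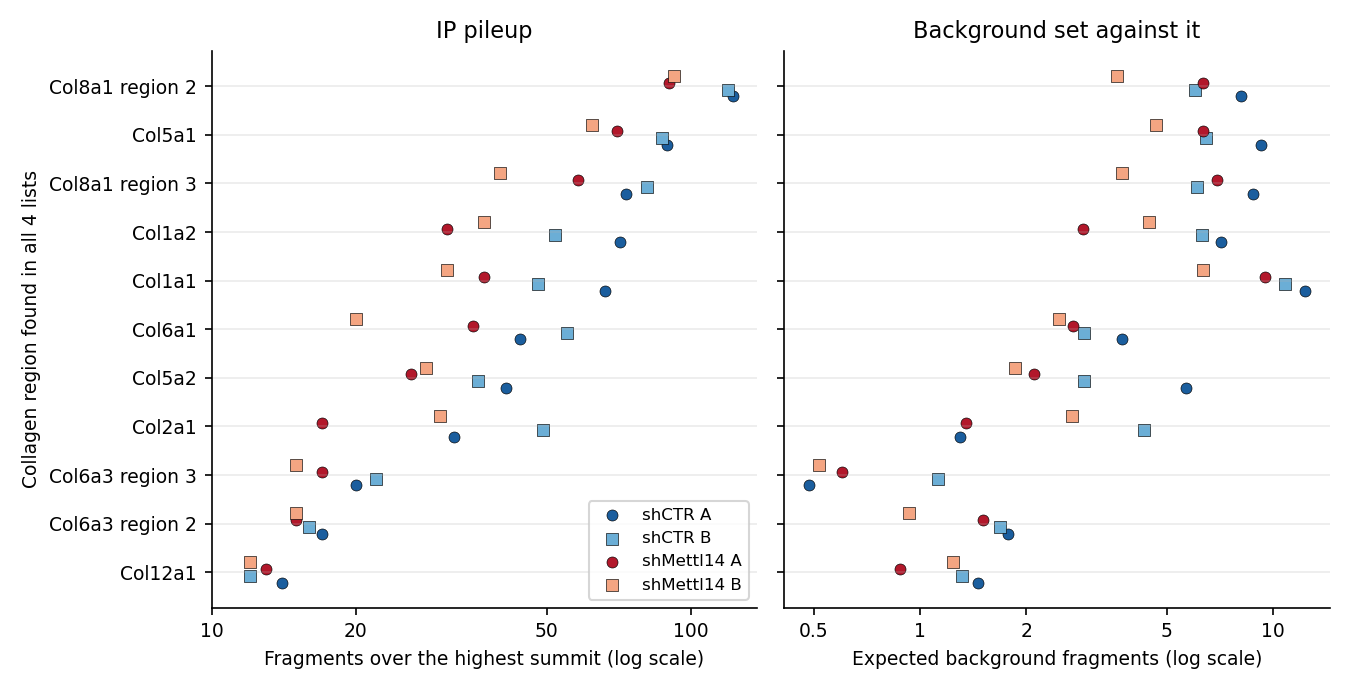
IP fragments over the highest summit (left) and the expected background fragments (right), both on log axes, for the 11 collagen regions found in all 4 lists, ordered by mean pileup. Each point is 1 list. The shMettl14 points (red shades) lie left of the shCTR points (blue shades) in many rows of both panels, on raw values that carry each library's own depth.

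Raw pileups carry the depth of each library, so the test was run on values centred on each list's median over the 4929 regions found in all lists, with limma and Benjamini-Hochberg adjustment over all of them. No collagen region passed in any of 3 measures, and no region of any gene did (0% of 4929 in each, smallest limma adjusted p 0.796 for the rank of fold enrichment, 0.948 for pileup and 0.383 for background). At an unadjusted p under 0.05, 4.93% of all regions were called by rank, 4.93% by pileup and 6.25% by background, and 0, 0 and 2 of the 11 collagen regions. Those 2 were Col1a2 and Col5a2, by background. Centred log2(background + 1) fell by 0.53 in Col1a2 (SE 0.24, limma adjusted p = 0.779) and fell by 0.56 in Col5a2 (SE 0.23, limma adjusted p = 0.779). Both rest on single lists. Leaving out shMettl14 A moved the difference in Col1a2 to -0.14, and leaving out shMettl14 B moved it to -0.92. In Col5a2 it went to -0.21 when shCTR A was left out and to -0.91 when shCTR B was.

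By pileup, 9 of the 11 collagen regions were lower with shMettl14, with a median difference of -0.21 on the centred log2(pileup + 1) scale, against 46.5% of all regions and a median of 0.03. Both shMettl14 lists lay below both shCTR lists in 5 of the 11 (Col1a1, Col1a2, Col5a1, Col6a1 and region 3 of Col8a1), against 14.7% of all regions, and above them in 1 (Col12a1), against 19%. The differences, shMettl14 minus shCTR, were -0.59 for Col6a1 (SE 0.27), -0.54 for Col1a2 (SE 0.27), -0.50 for Col2a1 (SE 0.39), -0.43 for Col1a1 (SE 0.23), -0.38 for region 3 of Col8a1 (SE 0.24), -0.21 for Col5a2 (SE 0.24), -0.13 for Col5a1 (SE 0.22), -0.12 for region 2 of Col8a1 (SE 0.24) and -0.09 for region 3 of Col6a3 (SE 0.23). The 2 regions above 0 were Col12a1 at 0.23 (SE 0.23) and region 2 of Col6a3 at 0.15 (SE 0.23). Limma adjusted p was 0.982 or more for every collagen region. Leaving out 1 list at a time, the pileup difference ranged from -0.82 to -0.35 for Col6a1, from -0.82 to -0.27 for Col1a2, from -0.60 to -0.27 for Col1a1, from -0.42 to -0.0082 for Col5a2 and from -0.20 to -0.064 for Col5a1. Without shMettl14 A the difference turned to 0.045 in Col2a1 and to 0.049 in region 2 of Col8a1. Of the 5 with a range given above, the values nearest 0 came without shMettl14 A for Col1a2, Col5a2 and Col5a1, without shMettl14 B for Col6a1 and without shCTR A for Col1a1. Region 3 of Col6a3 turned without shCTR B, as the shCTR A score of -0.193 lay below the shMettl14 mean of -0.155. Region 2 of Col6a3 rested on shMettl14 B (-0.087), as shMettl14 A (-0.392) lay between the shCTR scores (-0.415 and -0.372). For Col12a1 and region 3 of Col8a1 no such values are given. The direction is thus a description of 11 regions of 9 genes, some of which form the same fibres, and no single region passed the test.

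The background was lower with shMettl14 in 10 of the 11 regions, with a median difference of -0.23 on the centred log2 scale, against 44.2% of all regions and a median of 0.03. Both shMettl14 lists lay below both shCTR lists in 5 of 11 (Col1a1, Col1a2, Col5a1, Col5a2 and region 2 of Col6a3), against 16.4% of all regions, and above them in 0, against 21.1%. The differences were -0.30 for Col1a1 (SE 0.19, limma adjusted p = 0.821) and -0.23 for Col5a1 (SE 0.20, limma adjusted p = 0.868). Leaving out shCTR A or shCTR B, that of Col5a1 was -0.039 or -0.42, and without shMettl14 B that of Col1a1 was -0.19. Background and pileup differences were unlike in some other genes, on few lists. Col6a1 and Col2a1, with pileup differences of -0.59 and -0.50, had background differences of -0.045 (SE 0.19) and -0.033 (SE 0.36). Their centred backgrounds overlapped between the shRNAs. Without shMettl14 A both turned above 0, with shMettl14 B at 1.10 and 1.19 against shCTR means of 1.04 and 0.75. Region 2 of Col6a3 had 0.15 (SE 0.23) in pileup, where the shRNAs overlapped and shMettl14 A lay between the shCTR lists, and -0.10 (SE 0.19) in background. The study names Col1a1, Col5a2 and Col18a1 among m6A-modified genes whose expression and peaks fell with Mettl14 knockdown. Its mRNA-seq is not part of these lists. The lists hold no mRNA level, and the part of mRNA level in the pileups was not tested.

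Fold enrichment, which divides the pileup by its background, showed no common direction. On normal scores of its rank within each list, 6 of the 11 regions were lower and 5 higher with shMettl14, with differences from -0.90 for Col6a1 (SE 0.54) to 0.52 for Col5a2 (SE 0.52), and -0.80 for Col2a1 (SE 0.51). Leaving out 1 list at a time, they ranged from -1.42 (without shMettl14 A) to -0.37 (without shMettl14 B) for Col6a1 and from -1.22 (without shCTR B) to -0.37 (without shCTR A) for Col2a1, and that of Col5a2 from 1.07 (without shCTR B) to -0.039 (without shCTR A). Limma adjusted p was 0.993 or more for each. Both shMettl14 lists lay below both shCTR lists in 1 region (Col2a1), against 15.8% of all regions, and above them in 2 (Col12a1 and region 2 of Col6a3), against 17%.

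**Figure D5:**
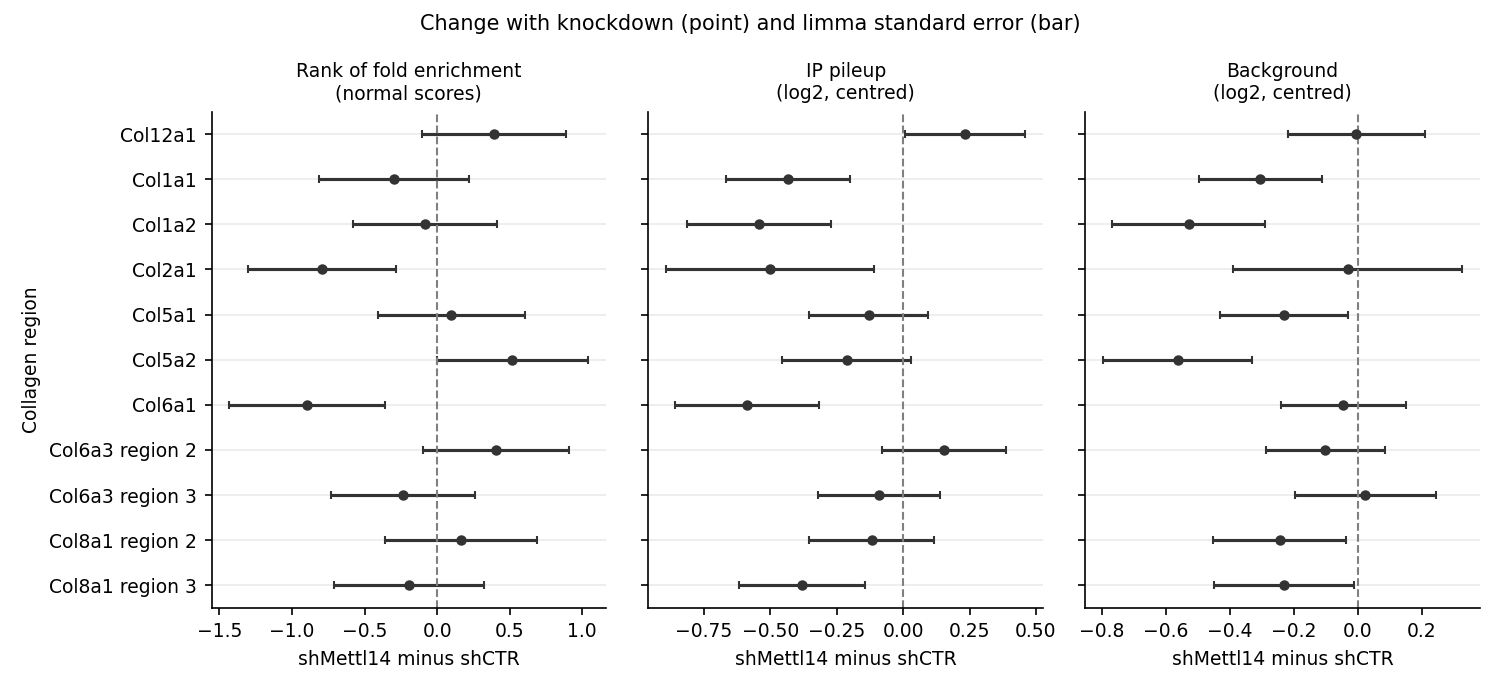
Difference between the shRNAs (shMettl14 minus shCTR, points) with its limma standard error (bars) for the 11 collagen regions, in normal scores of the rank of fold enrichment (left) and in log2 units centred on each list's median for pileup (middle) and background (right). Pileup is below 0 in 9 and background in 10 of 11 regions, and rank in 6.

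Collagen peaks sat on high backgrounds in all lists. The median background of collagen summits was 2.75 and 2.91 fragments with shCTR and 2.10 and 1.86 with shMettl14, at the 81.4 to 88.3 percentile of each list's summits, while the median of all summits was 0.970, 0.937, 0.902 and 0.620. The median percentile of their fold enrichment was 33.1 and 37.6 with shCTR and 49.4 and 36.9 with shMettl14, below the middle in 3 lists and near it in shMettl14 A. The median pileup of collagen summits was 30 and 30.5 with shCTR and 17 and 15 with shMettl14, against 16, 16, 14 and 13 over all summits. Since the shMettl14 lists also held more weak collagen summits, that median compares different sets of summits.

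The intervals deposited as the overlap of each shRNA's replicates treat Col1a1 differently from the lists they summarise. These files held 14 collagen intervals in 10 genes with shCTR and 16 in 11 genes with shMettl14. Of 27 pairs of overlapping collagen intervals from the A and B lists of an shRNA, 26 were represented there, with overlaps from 95 to 947 bp, and 1 was not. That pair was Col1a1 with shMettl14, where both replicates had a peak (fold enrichment 3.63 and 4.38, -log10 q of 8.14 and 8.89) and the intervals shared 102 bp. Over all genes, 95.6% of the overlapping pairs with shCTR and 95.5% with shMettl14 were represented, and 94.3% of the shMettl14 pairs that shared 100 to 150 bp. Of the shMettl14 pairs that shared under 100 bp, 84.5% were represented. Per the study's methods the replicates' peaks were intersected pairwise with BEDTools, with settings not given in the sources used here. The deposited intervals are not a plain intersection of these lists. They numbered 6706 with shCTR and 6440 with shMettl14, none shorter than 200 bp, against 6125 and 6142 overlapping pairs. Col1a1 thus appears in the shCTR file only, although its peak was called in all 4 lists.

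Genes that modify, process and crosslink collagen carried peaks in 16 of 36 cases (44.4%), 10 of them in all 4 lists, and the collagen receptors in 5 of 12 (41.7%), all 5 in all 4 lists. Over all protein-coding genes the shares were 25.3% in at least 1 list and 16% in all 4. None of these genes had a peak in both lists of an shRNA and in neither list of the other, as 0.287% (shCTR) and 0.33% (shMettl14) of all protein-coding genes did. The most summits were in Loxl1 (15), an enzyme that crosslinks matrix fibres, Tll1 (11), a protease that trims procollagen ends, and Loxl3 and the collagen receptor Ddr2 (10 each). Of genes named after their values were seen, Lox and Plod2, which crosslink and hydroxylate collagen, had 4 and 5 summits over the 4 lists. Of the prolyl hydroxylase genes, also named after their values were seen, P3h3 had 5 summits in all 4 lists and P4ha3 had 1, while P4ha1, P4ha2, P4hb, P3h1, P3h2 and P3h4 had none.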

How the data were processed

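The data were m6A-RIP-seq of primary mouse VSMCs with shCTR or shMettl14, with IP and input libraries of replicates A and B for each (8 samples, 4 peak lists). Per the labels and the study's methods, total RNA was cut to fragments of about 200 nt before the antibody step. The authors used STAR, SAMtools and MACS2 on mm10 per the submitters' processing notes, with uniquely mapped reads kept per the study's methods, and with tool versions and MACS2 options not given in the sources used here. The deposited lists give for each peak a fold enrichment (a ratio of IP pileup to background) together with its p-value and q-value, both as -log10. The score and strand columns were not used. The authors also deposited intervals shared by the replicates of each shRNA, intersected with BEDTools per the study's methods.

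From these files the pileup and background at each summit were recovered from the fold enrichment and the -log10 p (largest error in -log10 p 0.000151). The files hold no library totals, so depth per library is unknown and no counting interval is given. Summits were assigned to exons of GENCODE M21, and positions to the transcript of each gene with the longest complete coding sequence. The ends of peaks lay within the GRCm38 lengths on 21 of 21 chromosomes. Regions in all 4 lists were fitted with limma 3.58.1 (R 4.3.3) on normal scores of the fold enrichment rank and on log2(value + 1) of pileup and background, centred on each list's median, with Benjamini-Hochberg adjustment over all regions at 0.05. Values per list were compared with exact permutation tests over all splits of the lists (Python 3.11.15, numpy 2.4.6). Fisher's exact test, the recovery of pileups and the normal scores used scipy 1.17.1. The pileup fit was also run on simulated counts with counting error only and changes larger than any collagen pileup difference given here. That run does not show what the fit could find in these lists. All collagen genes are accounted for, with values for those with a summit in at least 2 lists and for regions with an unadjusted p under 0.05. Col1a1, Col5a1, Col5a2 and Col18a1, which the study names, are always given. Of the biosynthesis and receptor genes, the 3 with the most summits are named (4, since a pair tied), and others named are said to be chosen after their values were seen. Some sequences are not reported here. The members and lists were chosen with earlier results of these data known.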

Additional observations from a re-analysis of the deposited data

How the results depend on the processing

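No collagen region passed the limma adjusted threshold under any alternative run: -log10 p or centred log2 fold enrichment in place of the rank, equal numbers of top peaks, an overlap of 50 bp, scaling on the total pileup, a filter on low background, Fisher's exact test on summed pileups (0 of all regions after adjustment, unadjusted 126 of 4929, among them 3 of the 11 collagen regions, Col1a1, Col1a2 and Col6a1, all lower, in a test that sums replicates and covers counting error only) or leaving out a list. Leaving out 1 list at a time, the difference in collagen genes per list ranged from -1 to 4 and turned to -1 without shMettl14 A, that in summits per list ranged from 2 to 12, regions lower in pileup from 7 to 9 and in background from 7 to 11 of 11, and the helix share from 21.1% to 23.9%. With runs of 15 repeats that share was 10.3%, and with an exon limit of 500 nt 1 summit lay in a shorter exon. Ranges were drawn up for only part of the region differences given singly, and 3 of those turned when a list was left out. The Col2a1 pileup difference ranged from -1.04 to 0.045 and that of Col8a1 region 2 from -0.29 to 0.049, both above 0 without shMettl14 A. The Col5a2 rank difference ranged from -0.039 (without shCTR A) to 1.07. Differences outside that part turned too. Region 3 of Col6a3 rose above 0 in pileup without shCTR B, and Col6a1 and Col2a1 did so in background without shMettl14 A. Over all regions, the calls were 3 by rank without shMettl14 A, and 5 and 2 by background without shCTR A and B. Each such fit leaves 1 list in an arm, which is assumed to vary like the other arm's 2 lists. The counts of lower regions, the exon limits and the scaling on the number of summits, under which 11 of 11 regions were lower in pileup, were added after seeing the data.

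The letters A and B are shared by the shRNAs, but nothing says that they pair the samples, and same-letter deviations correlated at 0.08 (rank), 0.22 (pileup) and 0.21 (background). With the letter as a replicate block, 0 regions were called by rank (292 unadjusted), 9 by pileup and 11 by background, and 0 collagen regions in each. The depth reached is unknown, and 2 lists per shRNA limit every comparison, since the exact permutation test cannot go below 0.33.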
